A study of Mus musculus with 8 samples.

Results

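The genes of the first steps of glycosylphosphatidylinositol (GPI) anchor synthesis were examined in wild-type (WT) and Dp16 mice, in the submandibular gland, which makes saliva. The 8 genes, Piga, Pigc, Pigh, Pigp, Pigq, Dpm2, Pigl and Pigm, were taken by name from 54838 genes in each library, and all 8 passed the expression filter. They were selected on their place in the pathway and on the measured difference between WT and Dp16: Pigp lies in the duplicated segment, and Piga was chosen by its lower level in Dp16. Their WT and Dp16 values are therefore given as a description, with intervals and without p-values. The study compared 4 libraries from male C57BL/6J WT mice with 4 from male Dp16 mice, the line B6.129S7-Dp(16Lipi-Zbtb21)1Yey/J, whose strain is also labelled C57BL/6J. Dp16 is a model of Down syndrome in which every cell carries the part of chromosome 16 from Lipi to Zbtb21 in 3 copies, against 2 in WT. The labels name no treatment, and neither the age of the mice nor whether each library came from a separate mouse is given, so errors and p-values measure the spread between libraries.

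A GPI anchor is a glycolipid that is built in the endoplasmic reticulum and attached to the end of many proteins, which it then holds to the outer face of the cell membrane. Synthesis starts when a membrane complex transfers N-acetylglucosamine from its UDP form to phosphatidylinositol. Piga encodes the catalytic subunit of that complex, Pigc, Pigh, Pigp and Pigq encode accessory subunits, and Dpm2 encodes a small protein that binds the complex and also belongs to dolichol-phosphate-mannose synthase. Pigl then removes the acetyl group, and Pigm adds the first mannose. Acquired loss of PIGA in human blood stem cells causes paroxysmal nocturnal haemoglobinuria, in which blood cells lack GPI-anchored proteins. Human PIGP lies in the Down syndrome critical region of chromosome 21 and has been known as DSCR5.

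The stretch before the start of Piga is shown because Piga was the member with the largest difference, that of Dpm2 because it holds an E-box and Dpm2 was below WT in every Dp16 library, and that of Pigp because it is shared with a neighbour. All are RefSeq sequences on GRCm38.p6. For Piga and Dpm2 the 250 bases upstream of the RefSeq start are given, on the strand of the gene, and neither window holds an annotated exon. Capitals mark the CCAAT box in Piga (letters CCAAT, here as its reverse complement) and the E-box in Dpm2 (CACGTG). Pigq was also below WT in every Dp16 library, but its window holds none of the motifs searched and is not shown.
Piga, chrX:164419530-164419779, plus strand: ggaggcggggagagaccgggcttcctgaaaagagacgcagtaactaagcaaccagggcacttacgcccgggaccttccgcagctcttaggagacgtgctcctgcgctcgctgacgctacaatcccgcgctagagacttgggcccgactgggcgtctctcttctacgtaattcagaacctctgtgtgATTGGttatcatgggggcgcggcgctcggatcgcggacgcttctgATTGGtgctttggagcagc
Dpm2, chr2:32570608-32570857, plus strand: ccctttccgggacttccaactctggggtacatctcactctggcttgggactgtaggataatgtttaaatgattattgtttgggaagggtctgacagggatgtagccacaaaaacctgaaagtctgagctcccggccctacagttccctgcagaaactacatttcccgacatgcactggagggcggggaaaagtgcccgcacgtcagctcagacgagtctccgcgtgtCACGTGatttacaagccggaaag
Pigp and Ttc3 start on opposite strands with 28 bases between a RefSeq start of Pigp (16:94370710) and that of Ttc3 (16:94370739). In that stretch, written on the strand of Pigp, capitals mark a palindrome of the type known to be bound by the factor NRF1 (GCGCA followed by its reverse complement). The stretch lies within GENCODE exons of longer transcripts of both genes, so it is not intergenic.
Pigp to Ttc3, chr16:94370711-94370738, minus strand: GCGCATGCGCagtcgccgcgtcgccccc
Piga has 2 CCAAT boxes, counted on both strands, 64 and 19 bases before its start, and 33.8% of 32851 windows of 250 bases upstream of RefSeq starts hold at least 1 while 10.1% hold 2 or more. The E-box occurs in 6.02% of these windows and the palindrome in 0.782%. Of the 8 members, 7 matched a window, and Pigp has 4. No CCAAT box was found in the windows of Pigc, Pigh, Pigq, Dpm2 or Pigl, and 1 was found in 1 of the 4 Pigp windows. A GC box (GGGCGG), searched as well, occurs in 32.7% of all windows, in those of Pigc and Dpm2 and in 3 of the 4 of Pigp, and not in that of Piga. The E-box and the palindrome each occur in 2 of the 4 Pigp windows, which overlap each other. These matches describe letters and do not show that a factor binds.

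Reads in genes ranged from 90790542 to 115729892 per library, so members had from 150 reads (Pigl) to 3736 (Pigq). Summed levels of markers of acinar and granular duct cells, the secretory cells of this gland, were high in every library. They were at least 220869 CPM (read counts scaled to library size) for 10 acinar genes and 60923 CPM for 8 granular duct genes. Among these genes Smgc alone was at 0 in some libraries. Most of the acinar sum was Mucl2, at a mean of 281486 CPM in WT and 237766 CPM in Dp16. Other acinar markers were far lower, such as Chrm3 (30.7 and 27.9 CPM) and Smgc (1.38 and 0.166 CPM). Several measures moved with genotype or with 1 library, and their part in the results on the members was not tested. All 18 genes listed as lymphocyte markers were positive in Dp16, 1 of them called (Klrd1), and none was at 0. Their summed level was 33.5 to 42.97 CPM in WT and 53.2 to 142 CPM in Dp16. Most of this sum was Ptprc, at a mean of 31.2 CPM in WT and 63.8 CPM in Dp16. The next highest mean was that of Il7r, at 1.10 CPM in WT and 3.15 CPM in Dp16. The sum is therefore mainly a Ptprc level, and whether Ptprc marks lymphocytes in this gland was not tested. All 8 granular duct markers were negative, and Klk1, a kallikrein gene, was called lower (log2 fold change -0.70, edgeR adjusted p = 0.0358). Of 9 tested acinar markers 8 were negative and 0 were called, the lowest being Bhlha15 (-0.83), Aqp5 (-0.66) and Tesc (-0.61) (edgeR adjusted p = 0.0589 for the former 2 and 0.058 for Tesc). The summed granular duct level was 104208 to 177607 CPM in WT and 60923 to 128148 CPM in Dp16. Reads overlapping no counted feature took 13.8% to 15.9% of reads in WT and 18.4% to 20.8% in Dp16. The sum of the sublingual gland markers Muc19, Dcpp1, Dcpp2 and Dcpp3 reached 236 CPM in WT replicate 3 against 0.749 to 24.1 CPM in the other libraries. Levels below are CPM scaled by the trimmed mean of M-values (TMM) of edgeR, and fold changes are those of its quasi-likelihood fit over 19358 genes.

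Piga, on chromosome X from 164419787 to 164433916 (GRCm38), was at 9.74, 16.0, 8.75 and 11.7 CPM in WT replicates 1 to 4. In Dp16 replicates 1 to 4 it was at 5.25, 5.05, 4.98 and 5.89 CPM. The groups did not overlap: the highest Dp16 library was below the lowest WT library, and WT replicate 2 stood well above the other WT libraries. The means were 11.5 ± 3.21 CPM in WT and 5.29 ± 0.415 CPM in Dp16 (SD, n = 4 each). The fitted log2 fold change was -1.12 (SE 0.179, 95% confidence interval -1.53 to -0.72), a Dp16 level of 0.459 times WT (0.347 to 0.607). In bulk tissue, fewer cells that express a gene and less RNA per cell cannot be told apart. The log2 fold change was -0.93 without WT replicate 2 and -1.25 without WT replicate 3, the library with the high sublingual sum. No annotated gene overlaps Piga.

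Of the 8 members, 1 was called lower, Piga, and 0 were called higher by edgeR at a Benjamini-Hochberg adjusted p below 0.05, beside 0.155% of all genes tested called lower and 0.47% called higher. DESeq2 and limma-voom each called 1 lower (Piga) and 1 higher (Pigp), beside 4.37% lower and 5.89% higher of all genes tested by DESeq2, and 0.77% lower and 1.28% higher by limma-voom. Because the members were chosen with this contrast known, nothing is read from these counts. The edgeR call of Piga was lost without each of WT replicates 1 to 4 and Dp16 replicates 1, 3 and 4, so it remained in 1 of 8 omissions. Its fold change stayed within -1.25 to -0.93 over the 15 alternatives.

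Pigp, on chromosome 16 from 94358763 to 94371842, was at 14.7, 10.3, 12.9 and 10.1 CPM in WT replicates 1 to 4. It was at 20.8, 15.1, 17.6 and 18.7 CPM in Dp16 replicates 1 to 4. All 4 Dp16 libraries lay above all 4 WT libraries, with a small gap between Dp16 replicate 2 and WT replicate 1. The fitted fold was 1.51 (95% confidence interval 1.20 to 1.89), from 11.99 ± 2.19 to 18.1 ± 2.35 CPM (SD, n = 4), on the log2 scale 0.59 (SE 0.144). The ratio of 3 copies to 2 is 1.5, which is 0.585 on the log2 scale. Among 88 tested protein-coding genes of the segment, Pigp ranked 44 from the highest, and their median log2 fold change was 0.59 (quartiles 0.36 and 0.79). Pigp shares 326 of its 1987 exon bases (16.4%) with Ttc3 on the opposite strand and 234 (11.8%) with the processed pseudogene Gm15310 on the same strand. The strand setting of the counting is not given in the sources used here, so reads of the overlap with Ttc3 cannot be assigned with certainty. Reads of the overlap with Gm15310 cannot be told apart by strand under any setting.

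**Figure D1:**
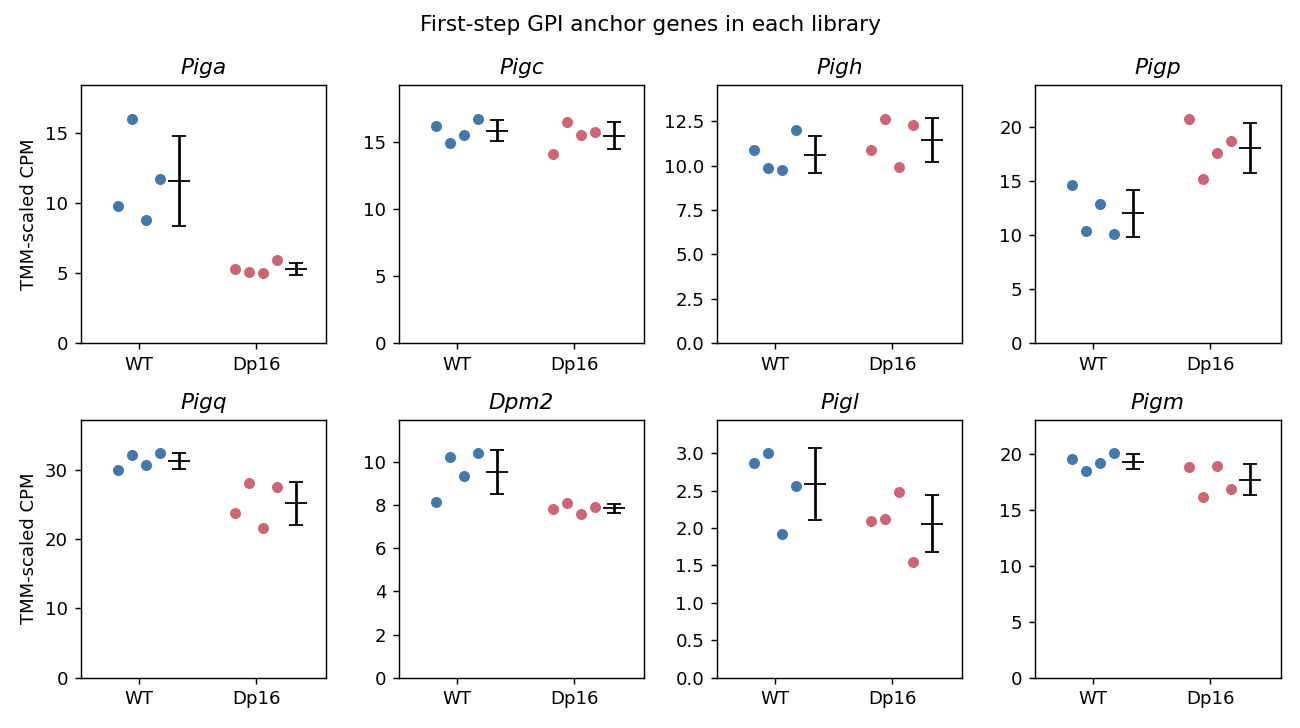
TMM-scaled CPM of the 8 first-step genes, 1 point per library in replicate order, with the mean and SD of 4 libraries beside each group and every axis starting at 0. Piga lies between 4.98 and 5.89 CPM in Dp16 and between 8.75 and 16.0 CPM in WT, and Pigp lies higher in all Dp16 libraries.

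Pigq, an accessory subunit on chromosome 17 from 25926421 to 25944936, was at 29.98, 32.1, 30.7 and 32.4 CPM in WT replicates 1 to 4. Its Dp16 values were 23.7, 28.1, 21.6 and 27.5 CPM, all below the lowest WT value. The log2 fold change was -0.31 (SE 0.093, 95% confidence interval -0.52 to -0.10). Pigq shares 957 exon bases (15.8%) with Gm16278 on the opposite strand and 330 (5.45%) with Nhlrc4 on the same strand. Dpm2, on chromosome 2 from 32570858 to 32573579, was at 8.18, 10.2, 9.34 and 10.4 CPM in WT and at 7.82, 8.09, 7.59 and 7.92 CPM in Dp16, in replicate order. Again no Dp16 library reached the lowest WT library, although the gap was small. Its log2 fold change was -0.28 (SE 0.096, 95% confidence interval -0.50 to -0.06). With Piga and Pigp, 4 of the 8 members had groups that did not overlap, 3 lower and 1 higher, beside 6.96% of all genes tested not overlapping and lower and 7.11% not overlapping and higher.

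The other accessory subunits overlapped between genotypes. Pigc, on chromosome 1 from 161969186 to 161973435, ranged from 14.9 to 16.7 CPM in WT and from 14.1 to 16.5 CPM in Dp16 (log2 fold change -0.03, 95% confidence interval -0.21 to 0.14). Pigh, on chromosome 12 from 79080664 to 79089651, ranged from 9.73 to 11.98 CPM in WT and from 9.94 to 12.7 CPM in Dp16 (0.11, -0.14 to 0.36). Both intervals end below 0.585, the log2 of the ratio of copies. Pigh shares 992 exon bases (27.3%) with Plekhh1 on the opposite strand.

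The enzymes of the following steps overlapped as well. Pigl, the deacetylase, on chromosome 11 from 62458460 to 62514417, had the lowest CPM of the members, not scaled to length. It was at 1.92 to 3.00 CPM in WT and 1.55 to 2.48 CPM in Dp16 (log2 fold change -0.33, 95% confidence interval -0.76 to 0.11). Pigm, the mannosyltransferase, on chromosome 1 from 172376546 to 172384099, was at 18.5 to 20.02 CPM in WT and 16.1 to 18.9 CPM in Dp16 (-0.13, -0.30 to 0.05). The interval of Pigl is wide, and that of Pigm is narrow.

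Levels of different genes were compared as CPM per kilobase of annotated exon. In WT the order was Pigp (6.03 ± 1.10), Pigq (5.17 ± 0.19), Dpm2 (4.84 ± 0.52), Pigc (3.72 ± 0.189), Pigh (2.92 ± 0.288), Pigm (2.55 ± 0.0868), Piga (1.81 ± 0.503) and Pigl (1.14 ± 0.211; SD, n = 4). The WT ranges of Pigp and Pigq, of Pigq and Dpm2, and of Pigm and Piga overlapped, and those of the other neighbours in the order did not. In Dp16 Pigp stood at 9.09 ± 1.18 and Piga at 0.83 ± 0.065 CPM per kilobase, and Piga changed places with Pigl (0.908 ± 0.169), becoming the lowest member by its mean, although their Dp16 ranges overlapped (0.779 to 0.922 for Piga and 0.683 to 1.09 for Pigl). Of Piga, Pigc, Pigh, Pigp, Pigq and Dpm2, the 6 genes of the transferase among the members, Piga was the lowest in both genotypes on this scale. With the longest annotated transcript as the length, Piga and Pigm changed places in WT. In Dp16 Pigl (0.947 ± 0.176) was then the lowest member and Piga (1.36 ± 0.106) stood above it, and Pigc and Pigh changed places.

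The ratio of the Pigp level to the Piga level per length combines both differences within each library. It was 4.84, 2.08, 4.73 and 2.77 in WT replicates 1 to 4 and 12.7, 9.63, 11.4 and 10.2 in Dp16 replicates 1 to 4. Every Dp16 library was above every WT library, with means of 3.60 ± 1.39 and 11.0 ± 1.36 (SD, n = 4). This separation follows from the values of Piga and Pigp given above and is not a further result. Of the summed level per length of these 6 transferase genes, Piga made up 7.37% ± 2.05 in WT and 3.33% ± 0.15 in Dp16. Pigp made up 24.6% ± 4.49 in WT and 36.5% ± 4.14 in Dp16.

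**Figure D2:**
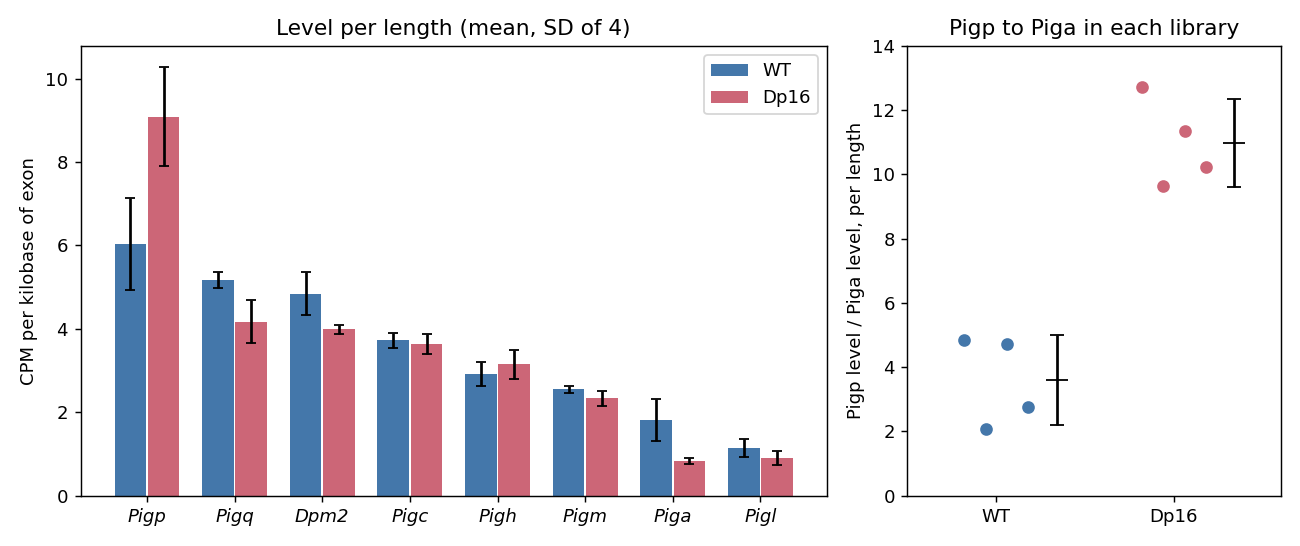
Left, CPM per kilobase of exon of the 8 genes, bars giving the mean and error bars the SD of 4 libraries, in the order of the WT level. Right, the ratio of Pigp to Piga per length in each library with mean and SD, which is 2.08 to 4.84 in WT and 9.63 to 12.7 in Dp16.

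The tested genes nearest to Piga and Pigp on the chromosome were compared, up to 4 on each side. Some lie far away. Measured between lower coordinates, those given around Piga lay 46409 (Vegfd) to 1819124 (Gpm6b) bases from it. Those around Pigp lay 11855 (Ttc3) to 474862 (Chaf1b) bases from it. Around Piga, log2 fold changes were 0.83 (Bmx), 0.57 (Pir) and 1.04 (Vegfd) on the lower side and -0.02 (Mospd2), -0.003 (Fancb), 0.54 (Gemin8) and 0.04 (Gpm6b) on the higher side. By edgeR 0 of these 7 passed, with adjusted p-values from 0.157 to 0.994. Pir alone of the 7 had groups that did not overlap, at 0.803 to 1.56 CPM in WT and 1.62 to 1.90 CPM in Dp16. Of all genes tested, 7.11% did not overlap and were higher. The lowest of the 7 was Mospd2, and Bmx, Vegfd and Gemin8 had means under 1 CPM in each genotype. Mospd2, a gene of organelle contact sites, was at 28.3 ± 5.58 and 27.9 ± 1.44 CPM (SD, n = 4). Among 471 tested protein-coding genes of chromosome X, Piga ranked 4 from the lowest, with a median of 0.01 for all of them. Piga was chosen by its lower level in Dp16, so its place here restates that choice.

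Around Pigp all 8 neighbours lie in the duplicated segment and all had positive values. Of these, 5 rose by edgeR: Ttc3, a ubiquitin ligase gene (log2 fold change 0.62, adjusted p = 0.0411), Vps26c, of endosomal sorting (0.60, adjusted p = 0.0181), Dyrk1a, a kinase (0.47, adjusted p = 0.0265), Hlcs, which attaches biotin (0.69, adjusted p = 0.0285), and Gm48978 (1.28, adjusted p = 0.0265). Ripply3 (1.00, edgeR adjusted p = 0.0573), Chaf1b (1.13, adjusted p = 0.0971) and the small nuclear RNA Gm23692 (0.71, adjusted p = 0.334) did not pass. Gm48978 lies within the span of Hlcs and Gm23692 within that of Ttc3, each on the same strand. They are therefore not separate stretches of the chromosome. Among the 88 tested protein-coding genes of the segment, 84 were positive and edgeR called 28 higher, beside 0.47% of all genes tested. Ttc3, which starts beside Pigp, went from 73.7 ± 8.58 to 112.8 ± 8.52 CPM (SD, n = 4), a fitted log2 fold change of 0.62 beside 0.59 for Pigp.

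**Figure D3:**
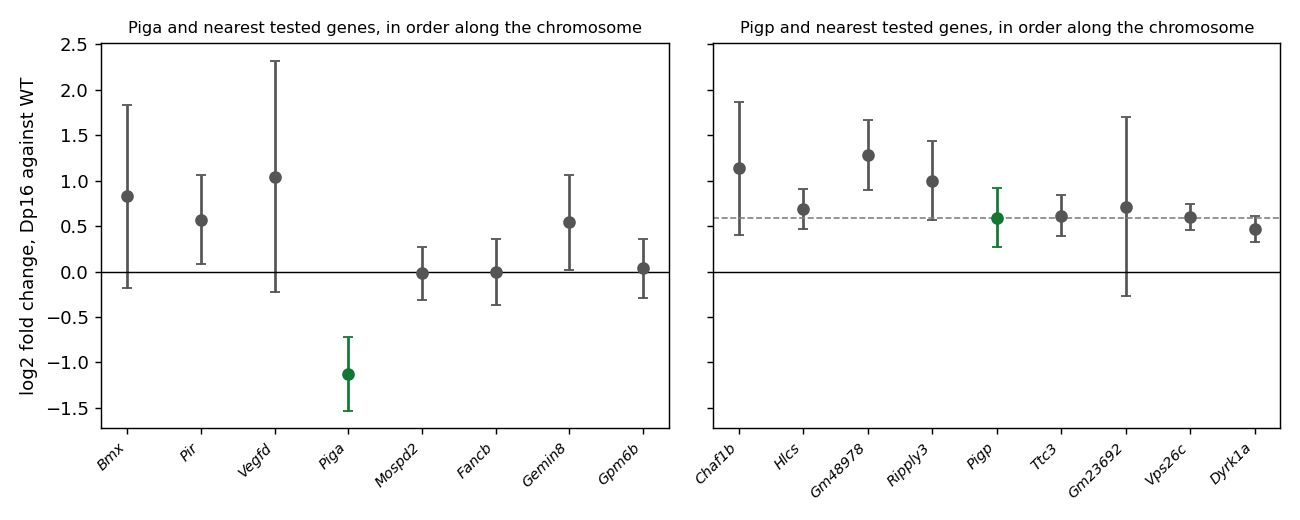
Log2 fold changes with 95% confidence intervals of Piga, Pigp (green) and up to 4 of the nearest tested genes on each side (grey), in order along the chromosome. The dashed line marks the ratio of 3 copies to 2. Piga, chosen by its lower level in Dp16, stands apart from its neighbours at -1.12. Pigp lies at 0.59 among genes that are all positive.

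The rest of the pathway was followed through 27 further genes, from inositol acylation to attachment, remodelling and release of the anchor. All 27 were tested, and edgeR called 0 higher and 0 lower over all genes. The median log2 fold change was -0.13, with 18 negative and 9 positive, beside 0.01 for all genes tested. At an unadjusted p below 0.05 there were 5, all negative (18.5%). Of all genes tested, 11.9% were negative at that p, and 24.6% passed it in either direction. DESeq2 called 2 lower, Arv1 and Gpaa1, and 0 higher, and limma-voom called 0.

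Arv1, a lipid transport gene needed for GPI synthesis, had the smallest p of the pathway genes outside the first steps. It was at 2.31, 2.13, 1.97 and 2.32 CPM in WT replicates 1 to 4 and at 1.50, 1.57, 1.54 and 1.47 CPM in Dp16 replicates 1 to 4. All Dp16 libraries were below all WT libraries (log2 fold change -0.52, SE 0.13, edgeR adjusted p = 0.0784). Gpaa1, a subunit of the transamidase that joins the anchor to proteins, was at 16.7 ± 2.16 CPM in WT and 12.9 ± 1.13 CPM in Dp16 (-0.38, SE 0.11, edgeR adjusted p = 0.103; SD, n = 4), also without overlap. The other transamidase subunits had -0.18 (Pigk), -0.24 (Pigt), -0.16 (Pigs) and -0.13 (Pigu), so all 5 subunits were negative and 0 passed.

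Dolichol-phosphate mannose is the mannose donor of the pathway, and Dpm2 works in its synthase with Dpm1, the catalytic subunit, and Dpm3, which holds it in the membrane. Dpm1 was at 8.05 ± 0.517 and 6.79 ± 0.392 CPM, without overlap (log2 fold change -0.25, SE 0.089, edgeR adjusted p = 0.148; SD, n = 4). Dpm3 was at 12.7 ± 1.78 and 10.1 ± 1.54 CPM (-0.33, SE 0.138, edgeR adjusted p = 0.186). Thus the 3 synthase genes had similar values, from -0.33 to -0.25, and 0 passed over all genes.

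Next in the order of synthesis, Pigw, which acylates the inositol, had -0.40 (edgeR adjusted p = 0.214). Pigx, the partner of Pigm, had -0.08, and the mannosyltransferases Pigv, Pigb and Pigz had 0.06, -0.10 and 0.19. Pyurf, whose transcript also encodes the Pigy subunit of the transferase in mammals, had -0.14, and Pigyl had 0.03. For the ethanolamine phosphate enzymes the values were 0.10 (Pign), -0.13 (Pigo), -0.12 (Pigf) and -0.11 (Pigg), all small. Of the remodelling genes, Pgap3 had -0.25 (edgeR adjusted p = 0.192), Tmem246, also known as Pgap4, -0.33 (0.27), and Mppe1 0.23 (0.28). Pgap1, which removes the acyl chain from inositol, had the highest CPM of the pathway genes, not scaled to length. It was at 166 ± 31.7 CPM in WT and 171 ± 66.2 CPM in Dp16 (SD, n = 4), with a wider spread in Dp16.

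**Figure D4:**
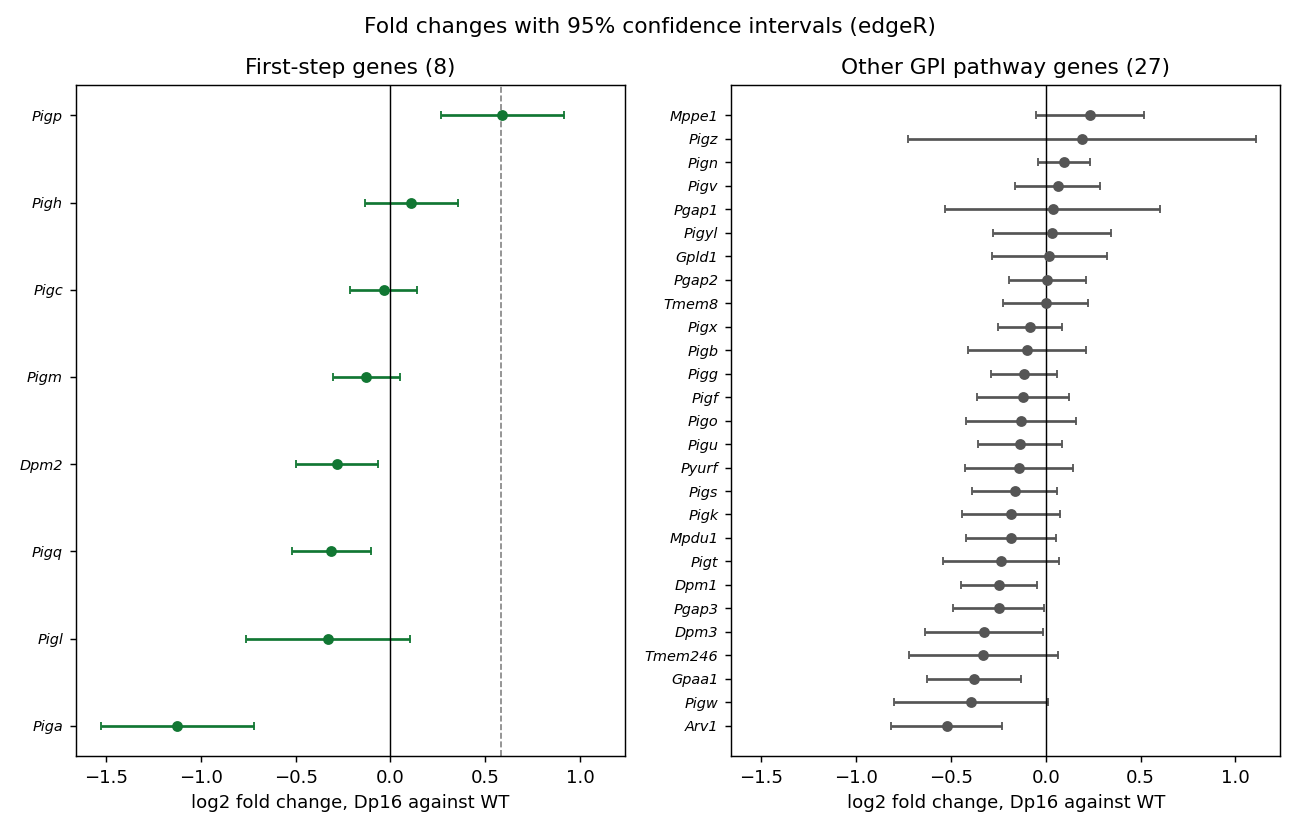
Log2 fold changes, Dp16 against WT, with 95% confidence intervals for the 8 first-step genes (left, green; dashed line, the ratio of 3 copies to 2) and the 27 other pathway genes (right, grey). Piga at -1.12 and Pigp at 0.59 lie outside the range of the other pathway genes, which runs from -0.52 (Arv1) to 0.23 (Mppe1). Piga was chosen by its lower level in Dp16, and Pigp lies in the duplicated segment.

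Finally, genes of proteins that carry a GPI anchor were counted. Of 113 matched genes 77 passed the filter, and 36 did not, so counts over the 77 do not cover all listed genes. By edgeR 0 were called higher and 0 lower, with 16 positive and 3 negative at an unadjusted p below 0.05 (24.7% in all, beside 24.6% of all genes tested). Over all genes 12.7% were positive and 11.9% negative at that p. The median was 0.09. It was 0.04 over the 66 genes not listed as marking immune cells and 0.60 over the 11 listed. Whether these 11 mark immune cells in this gland was not tested. Of the 11, 10 were positive, and Cd24a, at 312 ± 27.6 CPM in WT (SD, n = 4), was negative (-0.32). DESeq2 gave an adjusted p to 80 of the listed genes and called 9 higher and 2 lower, beside 5.89% higher and 4.37% lower of all genes it tested. Izumo1r and Msln, among those 9, are not among the 77. Limma-voom called 0. Several abundant genes outside the immune list had values near 0: the complement inhibitor Cd59a had -0.01, the prion protein gene Prnp 0.03, Ly6e -0.03 and the protease gene Prss8 -0.13. Dpep1, a dipeptidase gene of similar abundance, went from 35.0 ± 6.14 to 45.4 ± 7.67 CPM (log2 fold change 0.38, edgeR adjusted p = 0.167; SD, n = 4). These 5 genes were chosen after their values were seen.

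Bst1, an ectoenzyme of bone marrow stroma and myeloid cells, had the smallest p, at 1.69 ± 0.477 CPM in WT and 3.97 ± 1.26 CPM in Dp16 (log2 fold change 1.23, edgeR adjusted p = 0.071; SD, n = 4). Thy1, of T cells, had 0.85 (edgeR adjusted p = 0.0846), and Cd160, of natural killer and T cells, had 1.30 (adjusted p = 0.104). In Dp16 replicate 2 Thy1 was at 3.09 CPM, level with the highest WT library at 3.08 CPM. Without that replicate edgeR called 4 of the anchored genes higher, Cd48, Cd52, Thy1 and Izumo1r, all on the immune list, while all genes called higher went from 91 to 354. Izumo1r did not pass the filter with all 8 libraries. Among the others, Cntn1, a neuronal adhesion gene, had 1.49, Vnn1, a pantetheinase, 1.13, Nrn1 0.80 and Ly6k -1.27, with edgeR adjusted p-values of 0.0889, 0.0889, 0.0898 and 0.0956. H60b (1.55, edgeR adjusted p = 0.0826) was at or under 0.165 CPM in every library and overlaps Raet1e, so its level is uncertain.

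**Figure D5:**
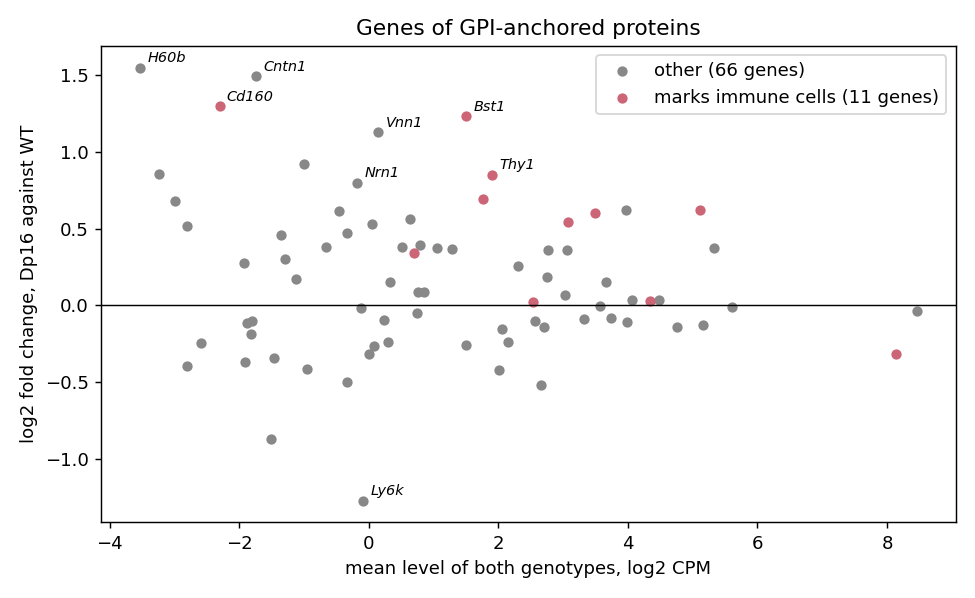
Each point is 1 of 77 tested genes of GPI-anchored proteins, with the mean level on a log2 CPM axis and the log2 fold change, Dp16 against WT, on the other. The 11 genes listed as marking immune cells (red) have a median of 0.60 and the 66 others (grey) 0.04. The 8 genes of smallest p are named.

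The genes most like Piga and Pigp in pattern over the 8 libraries were listed as a description, from 11895 protein-coding genes with a mean log2 CPM of at least 0. For Piga the highest Pearson correlations of log2 CPM were with Vps53 (0.988), Camta2 (0.982), Pmpcb (0.976), Nup188 (0.976) and Alg3 (0.973). In all, 259 genes reached 0.9, and the 8 points share genotype, library and depth. With the mean of each genotype subtracted, B9d1 (0.982), Eed (0.97), Alg3 (0.963), Vps53 (0.953) and Prr15 (0.947) came first, and 28 genes reached 0.9. Alg3 went from 6.10 ± 1.80 to 3.45 ± 0.402 CPM (log2 fold change -0.82; SD, n = 4), the largest difference among these. For Pigp the list over 8 libraries was Cd244a (0.979), Zkscan16 (0.978), Wdr66 (0.972), Kif21b (0.961) and Tab3 (0.959), all outside chromosome 16. After subtracting genotype means it was Bphl (0.995), Grhl1 (0.989), Slc12a2 (0.981), Cped1 (0.979) and Prkacb (0.977), and 96 genes reached 0.9.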

How the data were processed

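Total RNA of male submandibular glands was sequenced from stranded, ribosomal RNA-depleted libraries, per the labels. The deposited values are raw read counts per gene. Per the submitters' processing notes the tools were FastQC, STAR, HTSeq and DESeq2 on GRCm38; the sources used here give no version, annotation release or strand setting. The 5 rows that name no gene (58.1% to 65.4% of reads) were left out. Names and positions came from GENCODE M21 on GRCm38 (54809 of 54838 genes matched). Counts were tested in R 4.3.3 with edgeR 4.0.16 (default expression filter, 19358 genes; TMM; glmQLFit and glmQLFTest; genotype with no covariate; two-sided; Benjamini-Hochberg over all genes, called below 0.05). SEs and 95% confidence intervals were derived from the F statistics. Log2 CPM used a prior count of 2. The fit was tested on simulated data.

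Members and lists were chosen with earlier results of these data known. Named were all members, the 8 pathway and 8 anchored genes of smallest p plus any called, the 4 nearest tested genes on each side of Piga and Pigp (1 is not reported here), and the 5 genes closest to each in pattern. Cell type markers covered lymphocytes, acinar and granular duct cells, sublingual gland, fat (0 of 6 called) and skeletal muscle (0 of 3 tested called). For fat, 5 were negative and 1 positive (median log2 fold change -1.68), with summed levels of 5.61 to 9.51 CPM in WT and 6.00 to 7.70 CPM in Dp16. For muscle, 2 were negative and 1 positive, with sums of 1.15 to 1.68 CPM in WT and 0.785 to 0.919 CPM in Dp16. The part of these low levels in the results on the members was not tested. Alternatives were DESeq2 1.42.0, limma-voom (limma 3.58.1), size factors by relative log expression, no filter, TMM leaving out the top 1% of genes by abundance, CPM of at least 1 in 4 libraries, an adjusted p below 0.10, a replicate block and each library left out.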

Additional observations from a re-analysis of the deposited data

Results flagged for a closer look

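Bst1, a GPI-anchored ectoenzyme, was at 0.98 CPM in WT replicate 4, against 1.87 to 2.00 CPM in the other 3 WT libraries, a gap of 0.874 of the WT range. Chaf1b, a neighbour of Pigp, was at 0.466 CPM in WT replicate 3, against 0.675 to 0.708 CPM in the other WT libraries (0.862 of the range). These were the 2 samples far from their group in 78 groups of 4 libraries (39 named genes in each genotype), and chance alone flags about 1 group in 20. None of the 8 first-step genes had such a sample.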

How the results depend on the processing

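The 8 first-step genes kept the sign of their log2 fold change in 119 of 120 values under 15 alternatives, the exception being Pigc, near 0 throughout, at 0.007 when a library was left out. Leaving out 1 library gave ranges of -1.25 to -0.93 for Piga, 0.51 to 0.69 for Pigp, -0.37 to -0.24 for Pigq and -0.36 to -0.24 for Dpm2. The count of members called lower was 0 to 1 over those omissions and that of members called higher 0. Members called higher were 1 (Pigp) by DESeq2, limma-voom, an adjusted p below 0.10 and the replicate block. Other pathway genes called lower were 2 by DESeq2 and 1 at an adjusted p below 0.10. Anchored genes called higher were 9 by DESeq2, 6 at an adjusted p below 0.10 and 1 with the replicate block (Bst1), and 0 to 4 over omissions; those called lower were 2 by DESeq2 and 1 at 0.10. The anchored median was 0.036 without the genes listed as marking immune cells. In the order of WT level per length, the longest transcript put Piga in place 6 and Pigm in place 7.

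All genes called higher and lower were 1145 and 851 by DESeq2, 746 and 562 at an adjusted p below 0.10, 247 and 149 by limma-voom, 158 and 65 without a filter, and 360 and 416 with the replicate block, against 91 and 30. Over omissions they were 0 to 354 and 0 to 92. For the replicate numbers, same-numbered libraries correlated at 0.0777 to 0.191 in their deviations from group means, and other pairs at -0.225 to 0.141. Of 4 WT libraries, 2 correlated best with their own number. The numbers were not taken as pairs, although this check does not settle whether they are. The library name of WT replicate 4 carries the number 5, so its number in this check and in the block is uncertain. The named pathway and anchored genes kept their sign in all 120 and 114 values; 2 and 9 of these passed the threshold where the values given above did not. The cause of these differences was not tested. Depth limits H60b, Cntn1, Cd160 and Bmx, with as few as 2, 6, 6 and 6 reads in a library, and Izumo1r with as few as 1.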

Other observations

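Within genotypes, some first-step genes varied together across the 8 libraries, given as a description over 8 points that share library and depth. With genotype means subtracted, Pearson's r of log2 CPM was 0.78 for Pigh and Pigq, 0.68 for Pigc and Pigh and 0.61 for Piga and Dpm2. It was -0.82 for Pigp and Dpm2, -0.83 for Pigq and Pigm and -0.50 for Piga and Pigp. The spread of Piga on the log2 scale was 0.381 in WT and 0.11 in Dp16 (SD, n = 4), and that of Dpm2 0.16 and 0.0379, whereas Pigq had 0.053 and 0.18.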
